A study of Mus musculus with 6 samples.

Results

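Glycolysis turns glucose into pyruvate and, through lactate dehydrogenase, into lactate, and the hypoxia-inducible factor HIF-1 raises the transcription of most of its enzymes. The alpha subunit of that factor, encoded by Hif1a, is made continuously and is marked for destruction by oxygen-dependent prolyl hydroxylases, so its protein builds up when oxygen is short. In macrophages and neutrophils glycolysis is a main source of energy, and HIF-1 is also active in inflammation. The 34 genes described here are glucose transporters, enzymes of glycolysis and lactate export, Hif1a with 2 of its prolyl hydroxylases, and known targets of HIF-1. They were chosen by symbol. All 34 were among the 17528 genes of the deposited table, and all 34 were among the 14304 genes tested.

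RNA came from femur macrophages sorted for CD11b and F4/80, from BALB/c mice of genotype RAG2-/-γc-/-, which lack mature T, B and NK cells and accept human grafts. The day 0 mice were not engrafted, and the other mice were sampled 4 or 18 days after intravenous injection of Raji cells, an established human line of Burkitt lymphoma. For each day there were 2 libraries, named A and B after the columns of the table, so n = 2 throughout. Sources used here give neither the sex and age of the mice nor whether libraries A and B of a day are different animals, and the p-values cover just the variation between libraries, possibly a technical one. No ungrafted mice were sampled on the later days, so graft, injection and elapsed time cannot be told apart.

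Libraries held 20073017 to 23214526 reads in listed genes, and the 2 libraries of each group differed by more than sampling noise (chi-square per gene 2.46 to 4.45). At day 0 the gene of CD11b, Itgam, had 2311 ± 15.9 RPM (mean ± SD, n = 2) and the gene of F4/80, Adgre1, had 34.6 ± 0.990. The label calls the cells macrophages, but neutrophil genes took the larger share of reads. A list of 15 mature neutrophil genes took 14.9% of reads in each day 0 library and 11.7% and 11.8% in the day 18 libraries, against 1.83% and 1.81%, then 1.70% and 1.70%, for a list of 10 macrophage genes that includes Itgam. Levels below are RPM, reads per 1000000 after scaling between libraries. Changes are log2 fold changes ± standard error from limma, called at a Benjamini-Hochberg adjusted p under 0.05 over all tested genes. In such bulk libraries, fewer cells of a type and less RNA per cell cannot be told apart.

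The HIF-1 complex binds DNA at a short core, ACGTG or GCGTG. The promoters of 7 genes are shown because they belong to the 4 genes called higher at day 18 with a log2 fold change of at least 1 (Slc2a1, Hif1a, Ddit4 and P4ha1, with Pdk1 just short at 0.997), to 2 hexokinases that fell (Hk2 and Hk3) and to Ldha, a classical target that did not pass the test at day 18. Each runs from 250 bases before to 50 bases after a transcription start, on the strand of the gene, 5′ to 3′, from RefSeq on the build GRCm38.p6. Capitals mark every match to either core on either strand, so that CACGT and CACGC are the cores read from the other strand. Ldha has 2 such windows, of which 1 is shown.
Slc2a1, chr4:119108495-119108794, plus strand: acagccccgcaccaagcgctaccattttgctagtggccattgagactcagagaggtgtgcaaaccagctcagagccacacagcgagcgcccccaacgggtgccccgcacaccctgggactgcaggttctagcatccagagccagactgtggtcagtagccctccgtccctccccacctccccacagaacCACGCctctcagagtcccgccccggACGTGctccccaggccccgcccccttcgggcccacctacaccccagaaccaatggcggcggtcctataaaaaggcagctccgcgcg
Hif1a, chr12:73907617-73907916, plus strand: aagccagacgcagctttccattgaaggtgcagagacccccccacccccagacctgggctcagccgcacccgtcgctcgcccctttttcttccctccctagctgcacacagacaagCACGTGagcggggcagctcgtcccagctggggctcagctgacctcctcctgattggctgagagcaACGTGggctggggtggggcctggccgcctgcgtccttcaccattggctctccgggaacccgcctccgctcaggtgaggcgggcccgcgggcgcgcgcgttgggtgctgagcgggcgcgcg
Ddit4, chr10:59951721-59952020, minus strand: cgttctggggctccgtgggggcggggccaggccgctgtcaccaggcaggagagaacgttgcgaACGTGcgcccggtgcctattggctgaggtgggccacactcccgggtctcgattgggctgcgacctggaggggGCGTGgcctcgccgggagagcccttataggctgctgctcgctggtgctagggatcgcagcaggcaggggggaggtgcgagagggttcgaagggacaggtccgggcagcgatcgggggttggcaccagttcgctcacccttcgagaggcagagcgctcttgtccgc
P4ha1, chr10:59323046-59323345, plus strand: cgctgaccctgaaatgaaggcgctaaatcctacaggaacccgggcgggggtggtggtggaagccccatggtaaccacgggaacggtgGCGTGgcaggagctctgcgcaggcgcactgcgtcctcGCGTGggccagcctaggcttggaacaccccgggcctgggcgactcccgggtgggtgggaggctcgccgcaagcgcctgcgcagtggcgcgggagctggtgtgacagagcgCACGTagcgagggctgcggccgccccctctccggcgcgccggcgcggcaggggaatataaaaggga
Hk2, chr6:82774405-82774704, minus strand: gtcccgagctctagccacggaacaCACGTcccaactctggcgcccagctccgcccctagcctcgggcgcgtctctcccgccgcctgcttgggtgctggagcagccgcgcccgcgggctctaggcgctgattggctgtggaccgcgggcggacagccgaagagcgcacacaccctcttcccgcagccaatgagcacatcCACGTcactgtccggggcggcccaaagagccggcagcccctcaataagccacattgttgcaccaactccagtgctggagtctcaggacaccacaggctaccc
Hk3, chr13:55021336-55021635, minus strand: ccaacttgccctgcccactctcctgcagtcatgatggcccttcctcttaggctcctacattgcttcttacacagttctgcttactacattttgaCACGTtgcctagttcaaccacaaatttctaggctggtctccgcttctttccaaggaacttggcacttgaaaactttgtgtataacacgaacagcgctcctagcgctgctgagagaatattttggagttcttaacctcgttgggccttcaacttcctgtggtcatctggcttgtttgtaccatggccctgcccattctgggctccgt
Ldha, chr7:46845554-46845853, plus strand: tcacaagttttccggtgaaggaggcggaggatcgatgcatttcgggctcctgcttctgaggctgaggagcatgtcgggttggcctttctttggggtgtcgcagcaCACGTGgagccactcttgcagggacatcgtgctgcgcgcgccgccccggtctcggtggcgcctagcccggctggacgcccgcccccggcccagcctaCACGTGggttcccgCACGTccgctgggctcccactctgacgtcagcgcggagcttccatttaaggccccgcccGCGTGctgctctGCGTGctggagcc
Either core was in the window of 29 of the 31 genes with a RefSeq promoter (93.5%), against 66.6% of 9936 tested genes and 46.7% of all 27025 genes in the RefSeq table. The core ACGTG alone was in 74.2% of the 31 genes and in 29.3% of the tested genes, and GCGTG alone in 64.5% and 54.8%. CACGTG, which contains ACGTG on both strands, was in 16.1% of the 31 genes and 11.8% of tested genes. Among the 31 genes, either core was in 9 of the 9 that rose at day 18, 11 of the 12 that fell and 9 of the 10 that did not pass the test. Taken singly, GCGTG was in 8 of the 9 that rose and 6 of the 12 that fell, and ACGTG in 6 of the 9 and 9 of the 12. A gene was counted if any of its windows held the core, and genes differ in their number of windows. Per window, ACGTG was in 55.1% of the 49 windows of these genes and 25.4% of the 12618 windows of tested genes. GCGTG was in 51.0% and 49.2%, CACGTG in 10.2% and 9.99%, and either core in 77.6% and 60.8%. The genes that rose had 10 windows, with ACGTG in 6 and GCGTG in 8. Those that fell had 22, with ACGTG in 12 and GCGTG in 8. These shares were not tested. The median GC content was 62.3% in the 49 windows of these genes and 60.3% in the windows of tested genes. It was 67.5% in windows of genes that rose, 62.5% where they fell and 56.7% where they did not pass the test. The part of GC content in the shares of the cores was not tested. A match is a description of the sequence and not a site of binding. Slc2a3, Bnip3l and Ndrg1 had no entry in the promoter table.

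Per length of exon, the genes spanned 3 orders of magnitude, and the common enzymes of glycolysis dominated. Pkm, which encodes pyruvate kinase, was the highest at day 0 with 379 and 380 RPM per kilobase of exon. It was followed by the aldolase gene Aldoa (254 and 248), the mutase gene Pgam1 (216 and 214), the isomerase gene Gpi1 (211 and 206) and Hk3 (198 and 193) and these last 3 lay close together without overlapping. Ldha came next with 132 and 134. At the low end stood Pdk1 (0.634 and 1.06), Pfkm (0.599 and 0.470) and Aldoc (0.327 and 0.170), whose day 0 libraries lay far apart. The enzymes of the pathway together with Ldha took 0.657% and 0.651% of reads at day 0, then 0.663% and 0.665% at day 4, and 0.645% and 0.645% at day 18. These shares are of unscaled reads. On the scaled level used for single genes, the same sum was 6779 and 6725 RPM at day 0, then 6568 and 6638 at day 4, and 6259 and 6309 at day 18, where it was lowest.

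**Figure D1:**
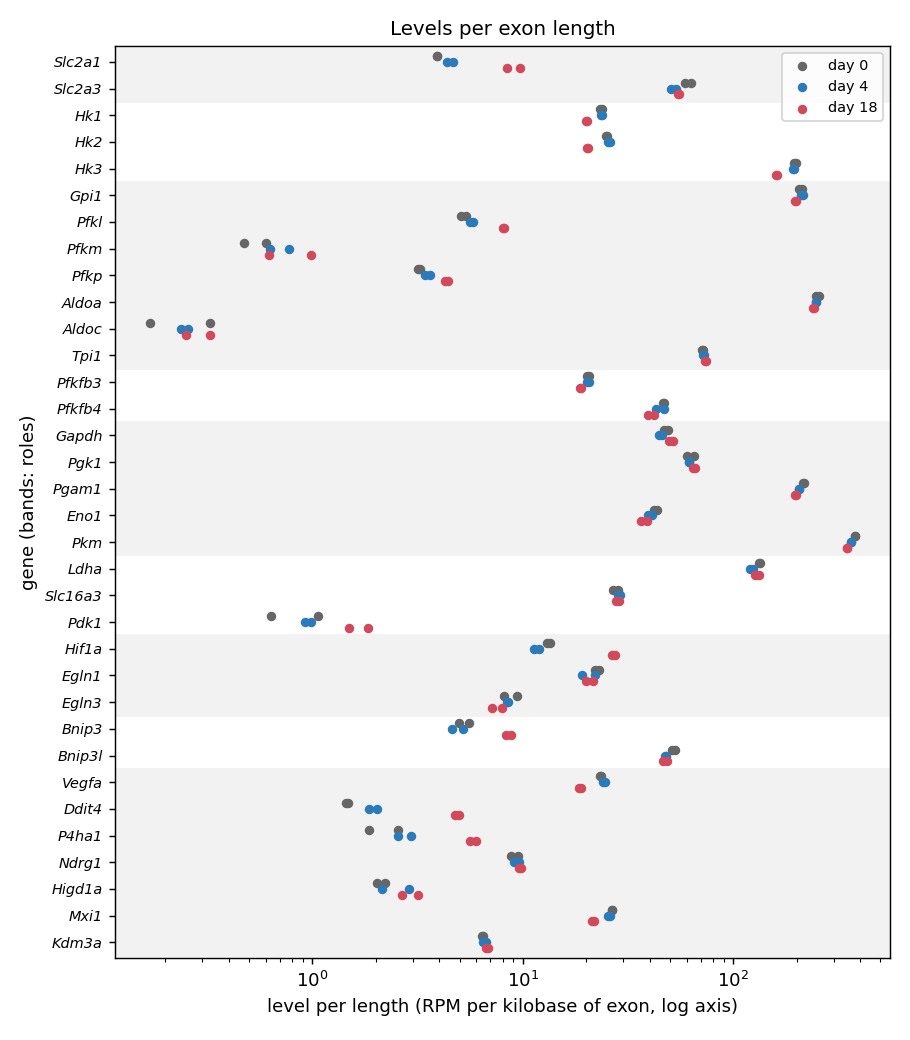
Level of each of the 34 genes in each library, in RPM per kilobase of exon on a log axis. Points are libraries, colours are days and grey or white bands are roles. Pkm, Aldoa, Pgam1, Gpi1 and Hk3 lie highest, and Slc2a1, Ddit4, P4ha1, Pdk1 and Hif1a move to the right at day 18.

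At day 18 a small group of genes rose, and many glycolytic genes, of higher level per exon length than those that rose, fell slightly. Against day 0, 9 of the 34 genes were called higher and 14 lower, where 18.0% of all tested genes were called higher and 17.1% lower. With libraries scaled by their totals alone, 14 of the 34 were called higher and 8 lower, beside 3432 and 1423 of the 14304 tested genes. The main calls were 67.6% of the 34 genes against 35.2% of all tested genes. These genes are abundant, and their median standard error was 0.0422 against 0.115 for all tested genes. The median absolute log2 fold change was 0.21 for the 34 genes and 0.22 for all tested genes. Such absolute values include noise, which was larger over all tested genes, so these 2 medians do not compare the true sizes of change. The median change was -0.0035 against 0.016. Calls with a log2 fold change of at least 0.5 were 7 higher (20.6% of the 34 genes, 10.7% of all tested genes) and 0 lower (1.503% of all tested genes). The 7 were Slc2a1, Pfkl, Pdk1, Hif1a, Bnip3, Ddit4 and P4ha1.

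The genes that rose and those that fell differed in level. Averaged over the 6 libraries, the 9 that rose had 1.16 to 17.4 RPM per kilobase of exon (median 3.70), and the 14 that fell had 19.9 to 363 (median 46.4), so the ranges did not overlap. The same order held over all tested genes with an exon length, at a median of 5.74 for those called higher and 14.99 for those called lower. Precision differed as well, with a median standard error of 0.124 in the 9 and 0.0366 in the 14, and so a fall of the size seen in Aldoa or Gpi1 would not be called in a gene as weak as Pdk1. Of the 34 genes, 14 had both day 18 libraries above both day 0 libraries, 17 had both below and 3 overlapped. The same was not counted over all tested genes, so these counts do not set the 34 genes apart from the rest.

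**Figure D2:**
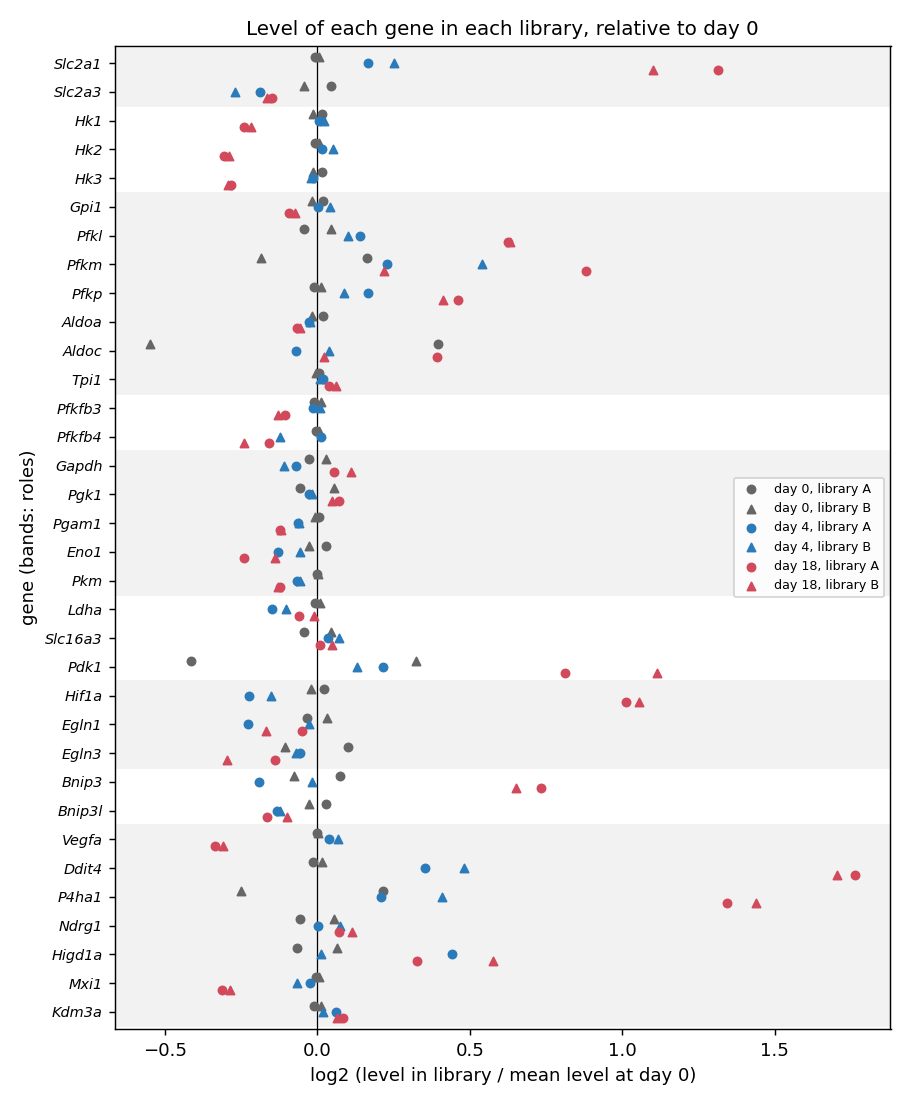
Log2 ratio of each library's level to the mean day 0 level, for the 34 genes. Circles are A libraries, triangles B libraries, colours are days and bands are roles. Day 18 libraries of Slc2a1, Pdk1, Hif1a, Ddit4 and P4ha1 lie far to the right of day 0, while day 4 libraries stay near 0 for most genes.

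The first step of glucose use is its uptake, and the 2 transporter genes moved in opposite directions. Slc2a1 encodes GLUT1, the basal glucose transporter induced by HIF-1. It stood at 13.6 and 13.8 RPM at day 0, then 15.4 and 16.3 at day 4, and 34.1 and 29.4 at day 18. Both day 18 libraries were above all others. Slc2a1 rose 2.30-fold at day 18 (1.20 ± 0.107, adjusted p = 7.84e-10), and the smaller difference at day 4 did not pass the test (0.21 ± 0.107, adjusted p = 0.242). From day 4 to day 18 it rose by 0.99 ± 0.107 (adjusted p = 3.6e-08). Slc2a3, the gene of the high-affinity transporter GLUT3, ranged from 367 to 456 RPM and fell at both days, by 0.23 ± 0.0317 at day 4 (adjusted p = 1.16e-05) and 0.16 ± 0.0317 at day 18 (adjusted p = 0.000336). The day 18 fall of Slc2a3 was lost when libraries were scaled by their totals alone (log2 fold change -0.07, adjusted p = 0.106, highest over all alternatives 0.160). Per length of exon, Slc2a1 made up 5.82% and 6.22% of the pair at day 0, then 7.56% and 8.41% at day 4, and 14.98% and 13.3% at day 18. GLUT3 transcripts remained the larger part of the pair in every library.

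**Figure D3:**
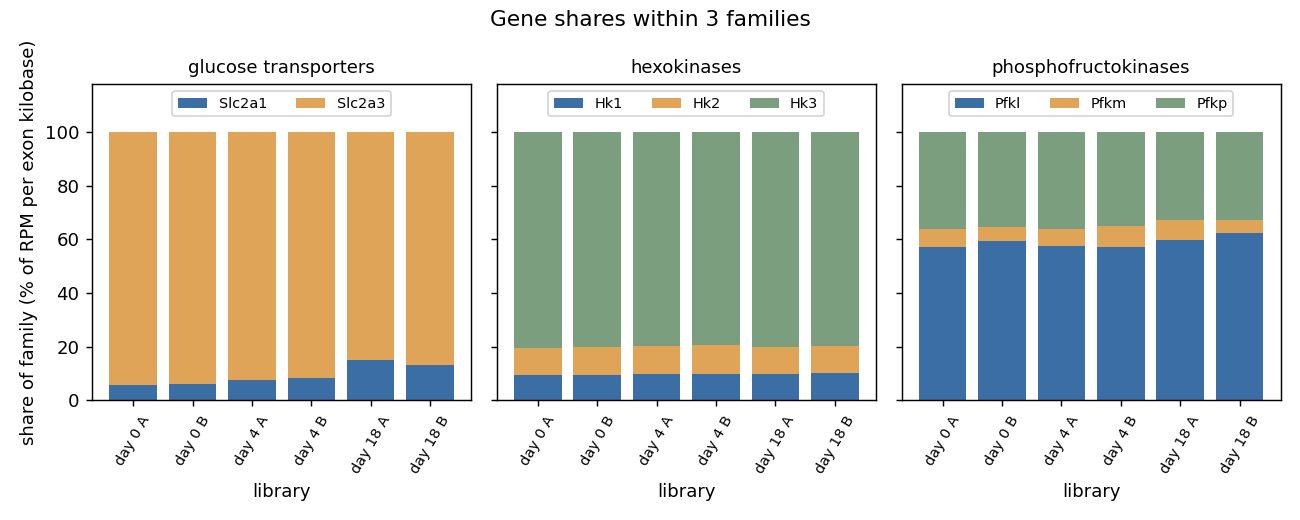
Share of each gene in the summed level per exon kilobase of its family, in percent, for each of the 6 libraries. The Slc2a1 share grows from 5.82% and 6.22% at day 0 to 14.98% and 13.3% at day 18, while Hk3 keeps 79.9 ± 0.222% of the hexokinases at day 18 and Pfkl is the largest phosphofructokinase.

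Hexokinases trap glucose in the cell by phosphorylating it, and the 3 hexokinase genes fell together at day 18. Hk2, the form induced by HIF-1 in many cells, stood at 148 and 149.8 RPM at day 0, then 151 and 154 at day 4, and 121 and 122 at day 18. Its day 18 libraries were below all others, and it fell by 18.7% (-0.30 ± 0.0404, adjusted p = 1.18e-06). Hk3, a hexokinase of blood cells, ranged from 587 to 727 RPM and fell by 0.29 ± 0.0227 on the log2 scale (adjusted p = 7.08e-11). Hk1, the general form, ranged from 169.6 to 203 and fell by 0.23 ± 0.0357 (adjusted p = 1.02e-05). At day 4 none of the 3 passed the test, with log2 fold changes between -0.02 and 0.03. Hk3 kept 80.1 ± 0.187% of the family per length of exon at day 0, 79.7 ± 0.241% at day 4 and 79.9 ± 0.222% at day 18, so the 3 genes fell in near proportion.

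At day 18 genes of mature neutrophils were also lower. Of the 15 genes of the mature neutrophil list, 12 were lower at day 18 (80.0%, against 17.1% of all tested genes) and 1 higher (6.67%, against 18.0%). Their summed level was 153229 and 153597 RPM at day 0 and 113270 and 115016 at day 18. At day 4, 12 of the 15 were lower (80.0%, against 6.62% of all tested genes), with sums of 131679 and 136119 RPM. Of 9 primary granule genes, which mark immature neutrophils, 5 were higher (55.6%) and 2 lower (22.2%) at day 18. Their sums were 2997 and 3039 RPM at day 0, then 4487 and 4530 at day 4, and 3312 and 3360 at day 18. Every tested gene of both lists had reads in every library. Cell cycle genes moved the same way at day 18, with 17 of 18 lower (94.4%, against 17.1% of all tested genes). The part of these genes in the change of the hexokinases was not tested.

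Between the hexokinases and the splitting of the sugar, phosphofructokinase commits the sugar to glycolysis. Pfkl, its liver-type subunit, stood at 33.9 and 36.0 RPM at day 0, then 38.5 and 37.4 at day 4, and 53.9 and 54.1 at day 18. The day 18 libraries were clearly apart from the others, and Pfkl rose 1.54-fold (0.63 ± 0.0713, adjusted p = 6.68e-08). Pfkp, the platelet-type subunit, ranged from 42.7 to 59.2 RPM and rose at day 18 by 0.43 ± 0.0660 (adjusted p = 6.51e-06). Pfkm, the muscle-type subunit, had only 1.57 to 3.28 RPM. Its day 18 difference (0.54 ± 0.310, adjusted p = 0.197) did not pass the test. Gpi1, which makes fructose 6-phosphate, fell by 0.08 ± 0.0194 (adjusted p = 0.00106), and Aldoa by 0.06 ± 0.0223 (adjusted p = 0.0337). Both small falls depended on the scaling: with library totals alone the change of Gpi1 was -0.00019 and that of Aldoa 0.02. Aldoa also lost its call without the day 0 A library (adjusted p = 0.216), the day 18 A library (0.165) or the day 18 B library (0.0900). Aldoc, a second aldolase, had at most 1.07 RPM and made up 0.0984% of the pair with Aldoa at day 0, and it did not pass the test. Tpi1, the triose isomerase, ranged from 196 to 205 RPM and did not pass the test (0.05 ± 0.0349, adjusted p = 0.298).

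Pfkfb3 and Pfkfb4 encode bifunctional enzymes that set the amount of the sugar bisphosphate that activates phosphofructokinase. Pfkfb3, a known hypoxia-induced gene, stood at 153 and 156 RPM at day 0, then 153 and 155 at day 4, and 143 and 141 at day 18. The day 18 libraries were the lowest, and Pfkfb3 fell by 7.88% (-0.12 ± 0.0393, adjusted p = 0.0199). That call was lost with library totals alone (-0.03, adjusted p = 0.559). It was also lost without the day 0 B library (-0.11), the day 18 A library (-0.13) or the day 18 B library (-0.11). Pfkfb4 ranged from 192 to 229 RPM and fell by 0.20 ± 0.0410 (adjusted p = 0.000396). Neither passed the test at day 4.

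In the lower part of the pathway, which makes the ATP, no gene was called higher at day 18 against day 0 and 3 of 5 were called lower. Over all tested genes, 18.0% were called higher and 17.1% lower. Gapdh, the dehydrogenase gene often used as a reference, stood at 194 and 202 RPM at day 0, then 189 and 184 at day 4, and 205 and 214 at day 18. Its day 18 libraries were above those of day 0, but the difference did not pass the test (0.08 ± 0.0370, adjusted p = 0.0852). From day 4 to day 18 Gapdh rose by 0.17 ± 0.0370 (adjusted p = 0.000792). Pgk1, the kinase that makes the first ATP and a classical HIF-1 target, stood at 135 and 146 RPM at day 0, then 138 and 139 at day 4, and 147 and 145 at day 18. Its libraries of days 0 and 18 overlapped (0.06 ± 0.0430, adjusted p = 0.312). Falls at day 18 were 0.12 ± 0.0266 for Pgam1 (adjusted p = 0.000713), 0.19 ± 0.0387 for the enolase gene Eno1 (adjusted p = 0.000321) and 0.13 ± 0.0160 for Pkm (adjusted p = 3.8e-07). With the main settings Pkm was already lower at day 4, by 0.06 ± 0.0160 (adjusted p = 0.0102). That early call was lost with library totals alone (-0.0084, adjusted p = 0.814). It was also lost without the day 0 A library (-0.063) or the day 0 B library (-0.056). With library totals alone the change of Pgam1 at day 18 was -0.04 and did not pass the test (adjusted p = 0.332, the highest over all alternatives), while Gapdh (0.17, adjusted p = 0.000773), Pgk1 (0.14, adjusted p = 0.0108) and Tpi1 (0.13, adjusted p = 0.00390) were called higher. The calls of these small changes thus depended on the scaling.

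The fate of pyruvate is set by lactate dehydrogenase, lactate export and the pyruvate dehydrogenase kinases. Ldha stood at 437 and 442 RPM at day 0, then 396 and 409 at day 4, and 422 and 437 at day 18. The day 4 libraries were the lowest. Ldha fell by 0.13 ± 0.0280 at day 4 (adjusted p = 0.0026), rose by 0.09 ± 0.0280 from day 4 to day 18 (adjusted p = 0.0146), and did not differ detectably between days 0 and 18 (-0.03 ± 0.0280, adjusted p = 0.372). The fall at day 4 was lost with library totals alone (-0.07, adjusted p = 0.0870) and without the day 0 B library (-0.11). The rise from day 4 was lost without the day 4 A library (0.069) or the day 18 B library (0.067). Slc16a3, which encodes the lactate exporter MCT4, ranged from 142 to 154 RPM and did not pass the test in any comparison, but was called higher at day 18 with library totals alone (0.11, adjusted p = 0.0381). Pdk1, the gene of a pyruvate dehydrogenase kinase, stood at 4.93 and 8.23 RPM at day 0, then 7.64 and 7.20 at day 4, and 11.5 and 14.2 at day 18. Its day 0 libraries bracketed those of day 4, and both day 18 libraries were higher. Pdk1 rose 2.00-fold at day 18 (1.00 ± 0.194, adjusted p = 0.000306), and by 0.63 without the day 0 A library (adjusted p = 0.0150). The call was lost on the RPKM scale (adjusted p = 0.0588) and with 1 spread for all levels (0.0843). Its rise from day 4 to day 18 (0.78 ± 0.194, adjusted p = 0.00408) was lost without the day 18 B library (adjusted p = 0.0908).

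Of the 9 genes that rose at day 18 against day 0, Hif1a had the smallest standard error. It stood at 79.0 and 76.8 RPM at day 0, then 66.6 and 70.1 at day 4, and 157 and 162 at day 18. The day 4 libraries were the lowest and the day 18 libraries the highest. Hif1a rose 2.04-fold from day 0 to day 18 (1.03 ± 0.0493, adjusted p = 3.19e-15) and 2.33-fold from day 4 (1.22 ± 0.0493, adjusted p = 1.14e-16). At day 4 it fell by 0.19 ± 0.0493 (adjusted p = 0.0112). That early fall was lost without the day 0 A library (adjusted p = 0.118) or the day 4 A library (0.0835). The transcript was measured here, and the HIF-1 alpha protein, which oxygen controls, was not. Egln1 and Egln3, genes of the prolyl hydroxylases, ranged from 68.7 to 82.3 and from 19.0 to 25.1 RPM and did not pass the test in any comparison. At day 18 their changes against day 0 were -0.11 ± 0.0632 and -0.21 ± 0.102. Egln3 is itself strongly induced by HIF-1 in many cells.

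Bnip3 and Bnip3l encode related proteins of the outer mitochondrial membrane that direct mitochondria to autophagy, and both are HIF-1 targets. Bnip3 stood at 12.5 and 11.3 RPM at day 0, then 10.4 and 11.8 at day 4, and 19.8 and 18.7 at day 18. Only at day 18 were its libraries apart from the rest, and it rose 1.61-fold (0.69 ± 0.124, adjusted p = 6.6e-05). Bnip3l, the more abundant of the pair, ranged from 178 to 204 RPM and fell at day 18 by 0.13 ± 0.0375 (adjusted p = 0.00656). It fell by as much at day 4 (0.13 ± 0.0375, adjusted p = 0.0238). The day 18 fall was lost with library totals alone (-0.05, adjusted p = 0.353). It was also lost without the day 0 A library (-0.11) or the day 18 A library (-0.10). The day 4 fall was lost with library totals alone (-0.07, adjusted p = 0.225) and without any 1 of the 4 libraries compared.

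Of the other 7 HIF-1 targets, 3 were called higher and 2 lower at day 18, where 18.0% of all tested genes were called higher and 17.1% lower. Ddit4 encodes REDD1, an inhibitor of mTORC1 induced by hypoxia and by glucocorticoids. It stood at 2.53 and 2.59 RPM at day 0, then 3.27 and 3.57 at day 4, and 8.69 and 8.35 at day 18. The 3 groups did not overlap, and Ddit4 rose 3.24-fold at day 18 (1.70 ± 0.215, adjusted p = 4.15e-07), the largest change among the 34 genes. P4ha1, the collagen prolyl hydroxylase subunit, stood at 10.5 and 7.63 RPM at day 0, then 10.5 and 12.05 at day 4, and 23.0 and 24.6 at day 18. Its day 18 libraries were well above the other 4, and it rose 2.64-fold (1.40 ± 0.140, adjusted p = 8.02e-09). Higd1a, a small mitochondrial protein gene, ranged from 6.16 to 9.61 RPM. Its call at day 18 (0.45 ± 0.175, adjusted p = 0.0494) was lost when any 1 of the 4 libraries compared was left out, with adjusted p-values up to 0.329.

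Vegfa, which encodes the vascular growth factor that HIF-1 is best known for inducing, went the other way. It stood at 100.1 and 100.5 RPM at day 0, then 103 and 105 at day 4, and 79.4 and 80.9 at day 18. The day 18 libraries were the lowest, and Vegfa fell by 20.1% (-0.32 ± 0.0479, adjusted p = 4.65e-06). Mxi1, a repressor of MYC activity, ranged from 145 to 181 RPM and fell by 0.30 ± 0.0379 (adjusted p = 3.82e-07). Ndrg1 (0.09 ± 0.0609, adjusted p = 0.262) and the histone demethylase gene Kdm3a (0.07 ± 0.0620, adjusted p = 0.393) did not pass the test. With library totals alone Ndrg1 was called higher (0.18, adjusted p = 0.0254).

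Many macrophage, monocyte, eosinophil, erythroid and immediate early genes were also higher at day 18, when 18.0% of all tested genes were called higher and 17.1% lower. Of the macrophage list, 8 of 10 genes were higher and 2 lower at day 18, while its summed level, most of it from the lysozyme gene Lyz2, which neutrophils also express, was 18705 to 18888 RPM at day 0 and 16461 to 16664 at day 18. Classical monocyte genes were higher in 6 of 10 and lower in 3, with a summed level of 7308 to 7399 and 7242 to 7258 RPM. Non-classical monocyte genes were higher in 8 of 11 and lower in 1, and the sum went from 1035 to 1049 RPM at day 0 to 1244 to 1256. At day 4, 9 of the 11 were higher (81.8%, against 5.44% of all tested genes), and the median change of the 11 from day 4 to day 18 was 0.09. Eosinophil genes were higher in 8 of 10, from 456 to 460 RPM to 743 to 753. Erythroid genes were higher in 5 of 11 and lower in 1, from 374 to 393 RPM to 449.6 to 463. At day 4, 6 of these 11 had been lower (54.5%, against 6.62% of all tested genes). Of 12 immediate early genes, which handling of cells can also induce, 10 were higher, from 3099 to 3117 RPM to 4394 to 4454. Apart from the erythroid list, every gene of these lists had reads in every library. Not all lists rose. Resident marrow macrophage genes were higher in 6 of 14 and lower in 6, from 899 to 909 RPM to 859 to 871. Basophil genes were higher in 2 of 9 and lower in 3, from 247 to 260 RPM to 177 to 180. The part of any of these lists in the rises of Slc2a1, Hif1a, Ddit4 and P4ha1 was not tested.

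**Figure D4:**
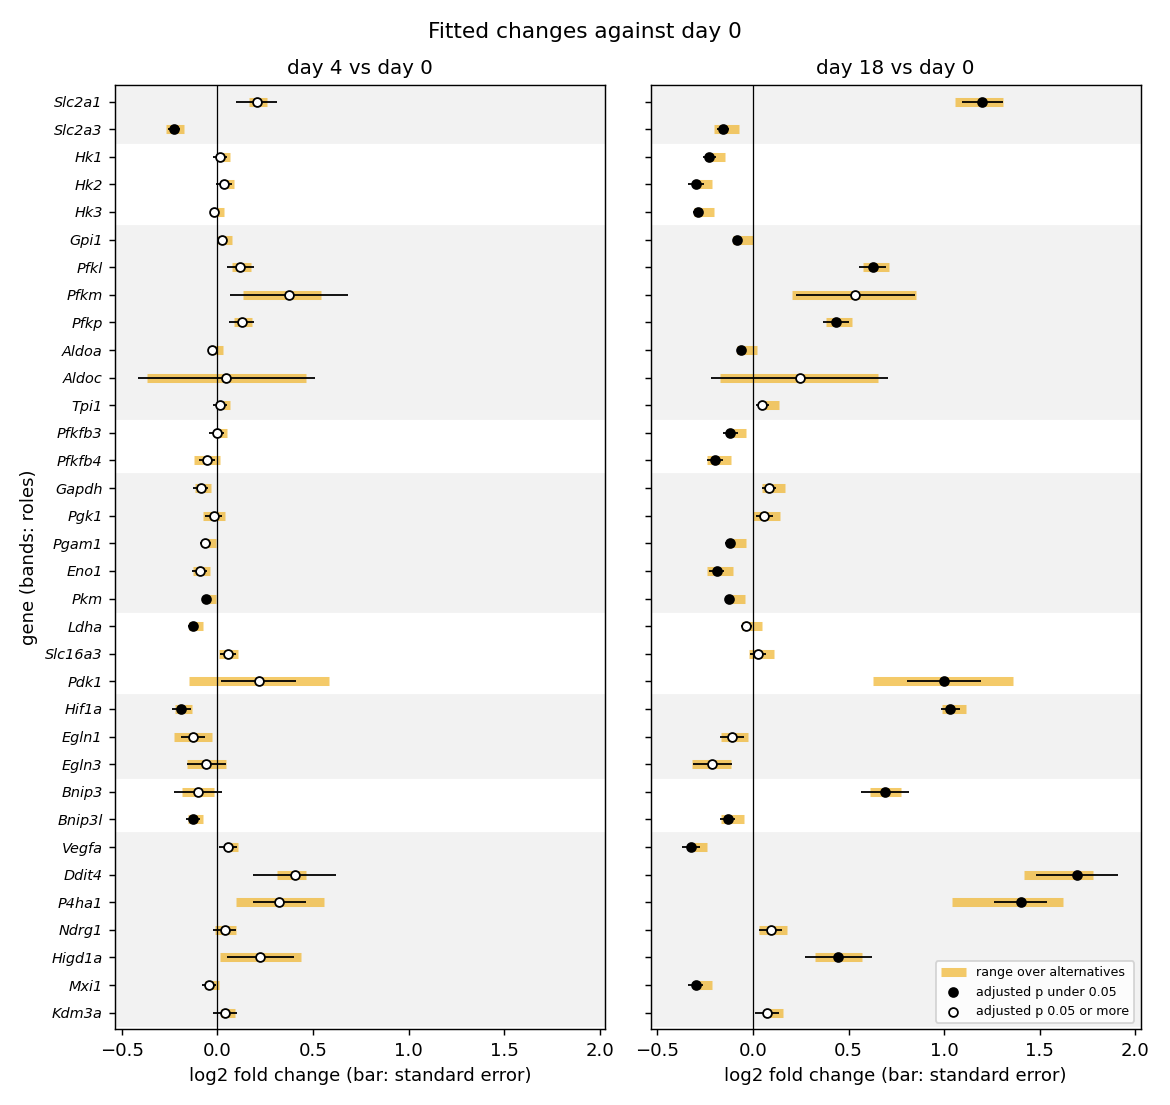
Log2 fold change of the 34 genes at day 4 (left) and day 18 (right) against day 0, with the standard error as a black bar and the range over all alternative settings as a yellow bar. Filled points passed an adjusted p of 0.05 and open points did not. The 9 genes called higher at day 18 lie between 0.43 and 1.70, and the 14 called lower between -0.32 and -0.06.

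At day 4 the genes had changed little. Against day 0, 0 of the 34 genes were called higher and 5 lower, where 5.44% of all tested genes were called higher and 6.62% lower. The share of 14.7% called was near the 12.1% of all tested genes. With library totals alone 1 of the 34 was called higher and 1 lower, beside 1261 and 461 of the 14304 tested genes. The 5 were Slc2a3, Ldha, Pkm, Hif1a and Bnip3l, and each fell by between 0.06 and 0.23. None of these 5 calls was kept under every alternative setting. The median change was 0.0057 for the 34 genes and 0.0043 for all tested genes. P4ha1, not called at day 4 (0.32 ± 0.140, adjusted p = 0.147), was called without the day 0 A library (0.56, adjusted p = 0.0287), and Egln1 was called lower without the day 4 B library (-0.23, adjusted p = 0.0371).

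Most of the change came between day 4 and day 18. In that interval 10 of the 34 genes were called higher and 9 lower, where 14.0% of all tested genes were called higher and 11.9% lower, or 55.9% against 25.9% in either direction. The genes called higher were Slc2a1, Pfkl, Pfkp, Gapdh, Ldha, Pdk1, Hif1a, Bnip3, Ddit4 and P4ha1. Vegfa (-0.38 ± 0.0479) and the hexokinases Hk2 (-0.33 ± 0.0404), Hk3 (-0.27 ± 0.0227) and Hk1 (-0.24 ± 0.0357) had the largest falls. This comparison shares its day 18 libraries with the one against day 0, and both comparisons against day 0 share the day 0 libraries. The calls of Slc2a1, Pfkl, Pfkp, Hif1a, Bnip3, Ddit4 and P4ha1 at day 18 were kept under every alternative setting run for them, against day 0 and against day 4. For Pfkp and Bnip3 that leaves out the setting with whole reads only, which drops them. Of the falls against day 0, those of Hk1, Hk2, Hk3, Vegfa and Mxi1 were kept under every setting, and the other 9 were lost under at least 1, as were the rises of Pdk1 and Higd1a.

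Genes around these pathways give their setting. The pentose phosphate pathway draws on the product of hexokinase to make NADPH, the fuel of the neutrophil and macrophage oxidative burst. Of its 11 tested genes 0 were called higher and 8 lower (72.7%, against 17.1% of all tested genes) at day 18, and 4 were already lower at day 4 (36.4%, against 6.62%). Pgd, the second dehydrogenase of the pathway, went from 1355 ± 4.52 RPM at day 0 to 1126 ± 20.8 at day 4 and 1039.7 ± 2.88 at day 18 (-0.38 ± 0.0192, adjusted p = 8.93e-15). G6pdx, the entry enzyme, fell by 0.34 ± 0.0228 at day 18 (adjusted p = 3.1e-12) and Tkt, the transketolase, by 0.28 ± 0.0178 (adjusted p = 1.18e-12). The median change of these 11 genes at day 18 was -0.24. The 15 mature neutrophil genes had a median of -0.34 in the same comparison, and their part in the fall was not tested.

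Other genes of glycolysis and pyruvate use moved in both directions, with 9 of 36 tested genes higher and 5 lower (13.9%) at day 18, near the 18.0% higher and 17.1% lower of all tested genes. Slc2a6, a further glucose transporter gene, went from 18.3 ± 0.703 RPM at day 0 to 35.3 ± 1.06 at day 18 (0.94 ± 0.0991, adjusted p = 1.64e-08). Adpgk, the ADP-dependent glucokinase, fell from 2458 ± 10.3 to 1973 ± 29.6 RPM (-0.32 ± 0.0172, adjusted p = 4.73e-14). Eno3, an enolase known from muscle, rose from 7.80 ± 0.410 to 12.97 ± 0.379 (0.73 ± 0.133, adjusted p = 8.43e-05), and had reached 13.6 ± 0.352 by day 4.

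Other genes of the hypoxia response were called higher in 16 of 42 (38.1%, against 18.0% of all tested genes) and lower in 9 (21.4%, against 17.1%) at day 18, with a median change of 0.09. Dusp1, a phosphatase of MAP kinases that is also an immediate early gene, rose from 255.5 ± 0.794 to 454.5 ± 1.53 RPM (0.83 ± 0.0297, adjusted p = 7.03e-18). Ero1l, an oxidase of the endoplasmic reticulum, fell from 379 ± 2.77 to 259 ± 0.412 (-0.55 ± 0.0300, adjusted p = 5.42e-14), and Tfrc, the transferrin receptor gene, from 113 ± 3.25 to 67.3 ± 0.364 (-0.75 ± 0.0495, adjusted p = 2.25e-12). At day 4, 3 of the 42 were higher (7.14%, near the 5.44% of all tested genes) and 6 lower (14.3%, against 6.62%). Hmox1, haem oxygenase, had then fallen by 0.51 ± 0.0481 (adjusted p = 2.38e-08). Hmox1 is also in the list of resident marrow macrophage genes, of which 9 of 14 were lower and 0 higher at day 4, and the part of those cells in its fall was not tested.

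Among regulators of glucose use, 8 of 25 were higher and 8 lower at day 18 (32.0% each, against 18.0% and 17.1% of all tested genes). Txnip and Arrdc4 encode arrestin-like proteins that restrain glucose uptake, and both are induced by glucose through the factor MondoA or ChREBP. Txnip rose from 369 ± 3.76 to 474.5 ± 14.5 RPM (0.36 ± 0.0284, adjusted p = 6.45e-11) and Arrdc4 from 17.2 ± 1.22 to 29.3 ± 0.279 (0.77 ± 0.107, adjusted p = 1.88e-06). Igf1r, a growth factor receptor gene, fell from 291 ± 0.860 to 219 ± 1.76 (-0.41 ± 0.0319, adjusted p = 5.84e-11).

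The counting limits some of these values. Whole reads were recovered for 19 of the 34 genes. Pfkp, Gapdh, Pgk1, Eno1, Slc16a3, Bnip3, Bnip3l and Higd1a carried fractions of reads, as when reads that match near-identical copies are divided, so their levels are uncertain, and the other 7 had too many reads to judge. Sources used here do not state whether counting used strand, so reads of overlapping antisense genes cannot be told apart from those of the gene.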

How the data were processed

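Total RNA of the 6 libraries was extracted with a Qiagen kit and prepared by standard Illumina protocols, per the labels' protocols. Per the submitters' processing notes, the aligner was STAR 2.5.3a and the genome mm10. Sources used here name neither counting tool nor gene filter. The authors deposited RPKM over the whole gene span, as the values show: multiplied by that span they sum to 1000000 per library. These RPM were scaled by trimmed mean of M values (factors 0.968 to 1.03). Read numbers were recovered from the steps between low values, within 0.05 reads plus 1e-05 per read, and not judged above a mean of 5000.

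Genes with at least 10 reads at the median library size in 2 libraries and 15 in total were compared as log2(RPM + 0.1) with limma 3.58.1 in R 4.3.3 (1 model of 6 libraries, spread following the level, robust moderation, 3 residual degrees of freedom). The pseudocount shrinks fold changes of weak genes. The test was tried on simulated data. Exon lengths came from GENCODE M21. Tables used Python 3.11.15 with pandas 2.3.3 and numpy 2.4.6, and figures matplotlib 3.10.9.

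The 34 genes and all lists were chosen with earlier results of these data known. Described in full were genes called with an absolute log2 fold change of at least 0.5, plus Slc2a1, Hk2, Pfkfb3, Gapdh, Pgk1, Ldha, Hif1a and Vegfa; of each other list, genes with the 3 smallest p-values. Alternatives changed the scaling, filter, pseudocount, model of the spread, libraries and genes.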

Additional observations from a re-analysis of the deposited data

Results flagged for a closer look

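Hif1a moved in opposite directions at the 2 times after engraftment. Its log2 change was -0.19 ± 0.0493 at day 4 (adjusted p = 0.0112, limma) and 1.03 ± 0.0493 at day 18 (adjusted p = 3.19e-15), and both changes share the day 0 libraries. The difference between the 2 changes, tested as day 18 against day 4, was 1.22 ± 0.0493 (adjusted p = 1.14e-16), with both day 18 libraries (157 and 162 RPM) above both day 4 libraries (66.6 and 70.1). The fall at day 4 passed the test with the main settings but not with library totals alone (adjusted p = 0.0781, where the highest over all alternatives was 0.233), so the opposite direction rests on that small fall.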

How the results depend on the processing

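Of 1806 changes of single genes recomputed under alternatives, 1702 kept their side of the threshold, 91 lost their call, 12 gained one and 1 called change reversed. Of the 1702, 23 in 15 genes changed sign without being called in either fit. The reversed call was Aldoa at day 18, 0.023 with library totals alone against -0.06. Library totals alone raised the median of all genes by 0.0531 (day 4), 0.0826 (day 18) and 0.0301 (day 18 against day 4), to 0.0574, 0.0986 and 0.0379, and changes are best read relative to it. The share of higher genes among all calls went from 45.1% to 73.2% at day 4 and from 51.3% to 70.7% at day 18, and the calls among the 34 genes became 1 higher and 1 lower (2 in all) at day 4 and 14 higher and 8 lower at day 18. Their median became 0.0593 at day 4 and 0.0809 at day 18. At day 18 it was -0.0480 with the stricter filter, -0.0730 with whole reads only, and -0.0545 to 0.0189 leaving out each library in turn. On the RPKM scale 91 of 14304 tested genes, 0 of the 34 among them, were called at day 4. The same scale gave 3376 genes and 14 of the 34 at day 18, and 2096 and 13 between days 4 and 18. With 1 spread for all levels, limma called 0 genes and 0 of the 34 at day 4 (3474 genes had an unadjusted p under 0.05 in the main test), 2618 and 12 at day 18, and 1357 and 10 between days 4 and 18. Leaving out each library in turn gave 914 to 1549 genes and 2 to 5 of the 34 at day 4 (998 without day 0 A and 914 without day 0 B), and 3608 to 5381 and 19 to 23 at day 18. A lone library was then assumed to vary like the other groups. The cause of these shifts was not tested. The column letters share only a letter: differences of A and B libraries correlated between groups at -0.018, 0.0018 and -0.042. With the letter as a replicate block, 5, 22 and 19 of the 34 genes were called, and 1669, 4939 and 3672 of all genes.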
